A study of Mus musculus with 10 samples.

Results

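Mast cell genes were followed in the epididymal white adipose tissue (eWAT) of 10 mice. They were the 8 genes *Cpa3*, *Cma1*, *Mcpt4*, *Tpsb2*, *Kit*, *Fcer1a*, *Ms4a2* and *Hdc*, chosen by name, and every probe on the array that carries 1 of these names was taken. That gave 8 of 34797 gene names and 9 of 55681 probes. All 10 mice belong to 1 group: male C57BL/6JOlaHsd mice (C57BL/6J in the sample descriptions), 9 weeks old at the start, which ate a low fat diet for 3 weeks and then a high fat diet (HFD) for 12 weeks at 29°C, and received the iron chelator desferrioxamine (DFO) at 100 mg/kg on each of 5 days before they were killed after 2 hours without food. The tissue was a whole fat pad, so RNA of fat cells, immune cells, vessels and the covering mesothelium was measured together. Untreated control mice were not analysed here, and the values below compare mice of the same treatment with each other.

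Each mouse had 1 array, on which its own RNA carried the red dye Cy5 and a pool of RNA carried the green dye Cy3. By the labels the same pool, made from all mice of the wider study with the controls, was put on every array. A value of a gene in a mouse is therefore a log2 ratio of that mouse to the pool, and the spread of Cy3 shows how well the same RNA repeats from array to array. Mice always carried Cy5, so an unequal response of a probe to the dyes enters its ratio, and none was tested for a difference from 0. Mice 1 and 2 shared slide 1, mice 3 and 4 slide 2, and so on to slide 5. Of the fat cell genes *Adipoq*, *Lep*, *Cfd*, *Fabp4*, *Plin1*, *Lipe*, *Pparg* and *Retn*, 8 of 8 were well above background on 10 of 10 arrays. Of 10 genes typical of the neighbouring epididymis, 8 were so in Cy5 on fewer than 5 arrays. The exceptions were *Lcn12* and *Rnase10*. Of all 55681 probes, 23347 were well above background in Cy5 on all 10 arrays and 27811 on 5 or more.

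Mast cells are tissue-resident immune cells that mature in the tissue under the hormone-like stem cell factor and store their products in granules. The granules hold histamine, made by the enzyme histidine decarboxylase (*Hdc*), and proteases bound to heparin: carboxypeptidase A3 (*Cpa3*), the chymases mast cell protease 5 (*Cma1*) and mast cell protease 4 (*Mcpt4*), and the tryptase mast cell protease 6 (*Tpsb2*). Stem cell factor acts on the receptor tyrosine kinase KIT (*Kit*), and antigen acts through the IgE receptor, whose alpha chain (*Fcer1a*) binds IgE and whose beta chain (*Ms4a2*) amplifies the signal. In fat, mast cells lie mainly along vessels and among connective tissue, and the chymases and tryptase named here are those of connective tissue mast cells.

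The sequences of 7 probes are shown because they tell which stretch of each transcript the values come from. Each probe is 60 bases long. The probes of *Cma1* and 1 of those of *Tpsb2* are given whole, and the others by their first 30 bases. All are printed in lower case, 5′ to 3′, in the sense of the transcript as the scanner files give them, and nothing in them is marked.
*Cpa3*, A_51_P214127: gccaagtatatcctcaagaatacttcctaa
*Cma1*, A_51_P514029: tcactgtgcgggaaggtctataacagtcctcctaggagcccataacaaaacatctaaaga
*Mcpt4*, A_51_P145132: tgaaagatgaattctgtgatgatggactgt
*Tpsb2*, A_55_P2127243: gggctgtgctgtctttaactcactgcttcc
*Tpsb2*, A_55_P2089143: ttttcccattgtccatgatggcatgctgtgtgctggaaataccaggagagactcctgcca
*Kit*, A_66_P128434: gtcaggtacttaaggggccacaccattgag
*Hdc*, A_51_P254656: ttgatcataacctcacagggtcttcgtgat

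In the annotation of the scanner files (mouse build mm9), the *Cpa3* probe lies on the minus strand of chromosome 3 at chr3:20115674-20115733. The *Cma1* probe lies at chr14:56561491-56562550 on the minus strand, a span of 1060 bases for 60 bases of probe, so it crosses an intron. The *Mcpt4* probe lies further along the same chromosome at chr14:56678589-56678648, also on the minus strand. The probes of *Tpsb2* lie on the plus strand at chr17:25504493-25504552 (A_55_P2089143) and chr17:25504819-25504878 (A_55_P2127243). That of *Kit* lies at chr5:76052394-76052453 on the plus strand and was spotted 2 times. On the minus strand lie those of *Fcer1a* (chr1:175151438-175151497), *Ms4a2* (chr19:11691701-11691760) and *Hdc* (chr2:126419516-126419575). Which of these stretches are coding and which are untranslated was not analysed here, nor was binding of a probe to a related transcript such as that of the neighbouring tryptase gene *Tpsab1*.

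Detection came first. The probes of *Cpa3*, *Cma1*, *Mcpt4*, *Kit*, *Hdc* and both of *Tpsb2* were well above background in both dyes on 10 of 10 arrays. *Fcer1a* was well above background in Cy3 on 10 arrays and in Cy5 on 9, with mouse 3 as the exception. *Ms4a2* was well above background on 0 of 10 arrays in either dye. Its Cy5 signal ran from 32.3 to 53.5 scanner units, against a median local background of 32 to 37 over the arrays. *Ms4a2* therefore has no usable ratio, and 7 of the 8 genes were carried on.

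**Figure D1:**
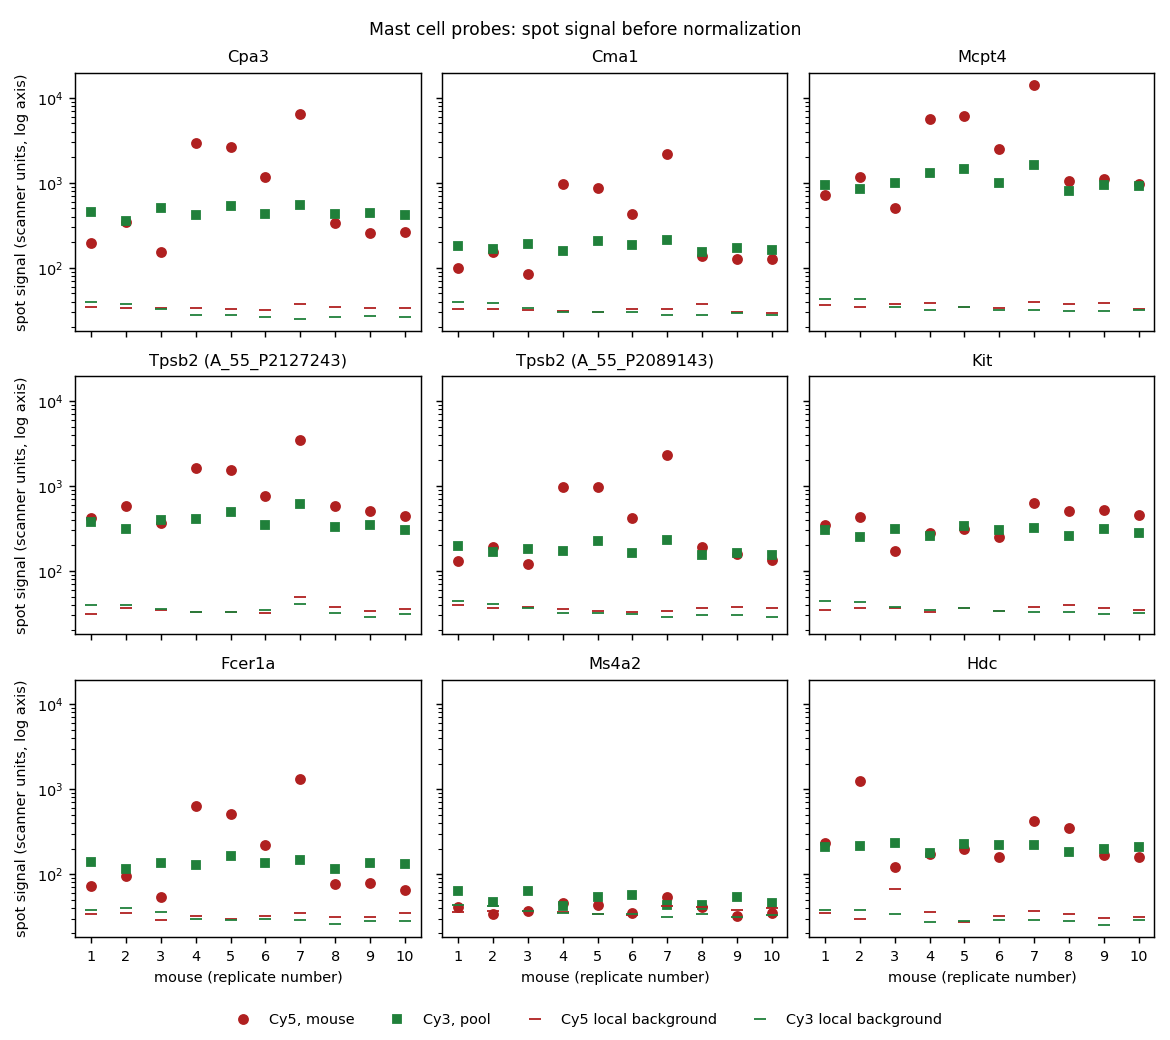
Spot signal before normalization (vertical log axis, scanner units) of the 9 mast cell probes in each of the 10 mice (horizontal axis), with Cy5 of the mouse as circles, Cy3 of the pool as squares and the local background of each dye as short lines. The pool's signal of *Cpa3* stays between 354 and 544 while that of the mice runs from 152 to 6543, and *Ms4a2* stays near the background in every mouse.

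*Cpa3* had the widest range of the 8 genes in the loess-normalized ratios, whereas in the scanner software's own ratios *Fcer1a* had a wider one (37.0-fold against 24.9-fold). Its Cy5 signal was 152 in the lowest mouse, 344 at the median and 6543 in the highest, while the pool's Cy3 signal on the same arrays ran only from 354 to 544. As a log2 ratio to the pool, the lowest mouse was at -1.54, the median was -0.99 and the highest mouse was at 2.49, a 16.3-fold range. Mice 4, 5, 6 and 7 were the high ones, with log2 ratios of 2.12, 1.74, 0.62 and 2.49. The other 6 mice lay between -1.54 and -0.78. The fold depended on how the arrays were normalized and reached 25.8 with median centring. Of 12680 genes that were well above background on every array, 35 had a wider range than *Cpa3*.

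The chymases followed the same mice. *Cma1* had log2 ratios of -0.87 in the lowest mouse, -0.62 at the median and 2.35 in the highest, a 9.32-fold range that was up to 20.5-fold in the other ratios tried. Mice 4, 5, 6 and 7 stood at 2.01, 1.63, 0.58 and 2.35, and the other 6 mice lay within 0.28 log2 units of each other. *Mcpt4* ran from -0.91 over a median of -0.45 to 1.96, a 7.31-fold range (up to 12.2-fold in the others). Mice 4 to 7 were again its 4 highest, at 1.37, 1.46, 0.42 and 1.96, and no other mouse was above -0.40.

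The tryptase *Tpsb2* was read by both of its probes with different sizes. Probe A_55_P2089143 ran from -0.74 over a median of -0.26 to 2.30, an 8.20-fold range (up to 14.8-fold). Probe A_55_P2127243, the brighter of them, ran from -0.29 over 0.19 to 1.47, a 3.39-fold range (up to 4.52-fold). The 4 highest mice were 4, 5, 6 and 7 on both probes, but on A_55_P2127243 mouse 6, at 0.38, was close to mouse 3, at 0.32. The order of the high mice was 7, 4, 5, 6 on both, as for *Cpa3* and *Cma1*. In *Mcpt4* mouse 5 stood slightly above mouse 4.

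*Fcer1a*, the IgE-binding chain of the receptor, was high in the same mice as the proteases. Its log2 ratio was -1.04 in the lowest mouse, -0.56 at the median and 2.18 in the highest, a 9.32-fold range that reached 37.0-fold in the scanner's ratios. Mice 4, 5, 6 and 7 were at 1.72, 1.24, 0.25 and 2.18, and the other mice were between -1.04 and -0.53. The Cy5 spot of mouse 3, at 54.4 scanner units, was not well above background, so its ratio of -0.59 is uncertain. The lowest ratio was that of mouse 10, whose spot was well above background at 65.1 units.

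**Figure D2:**
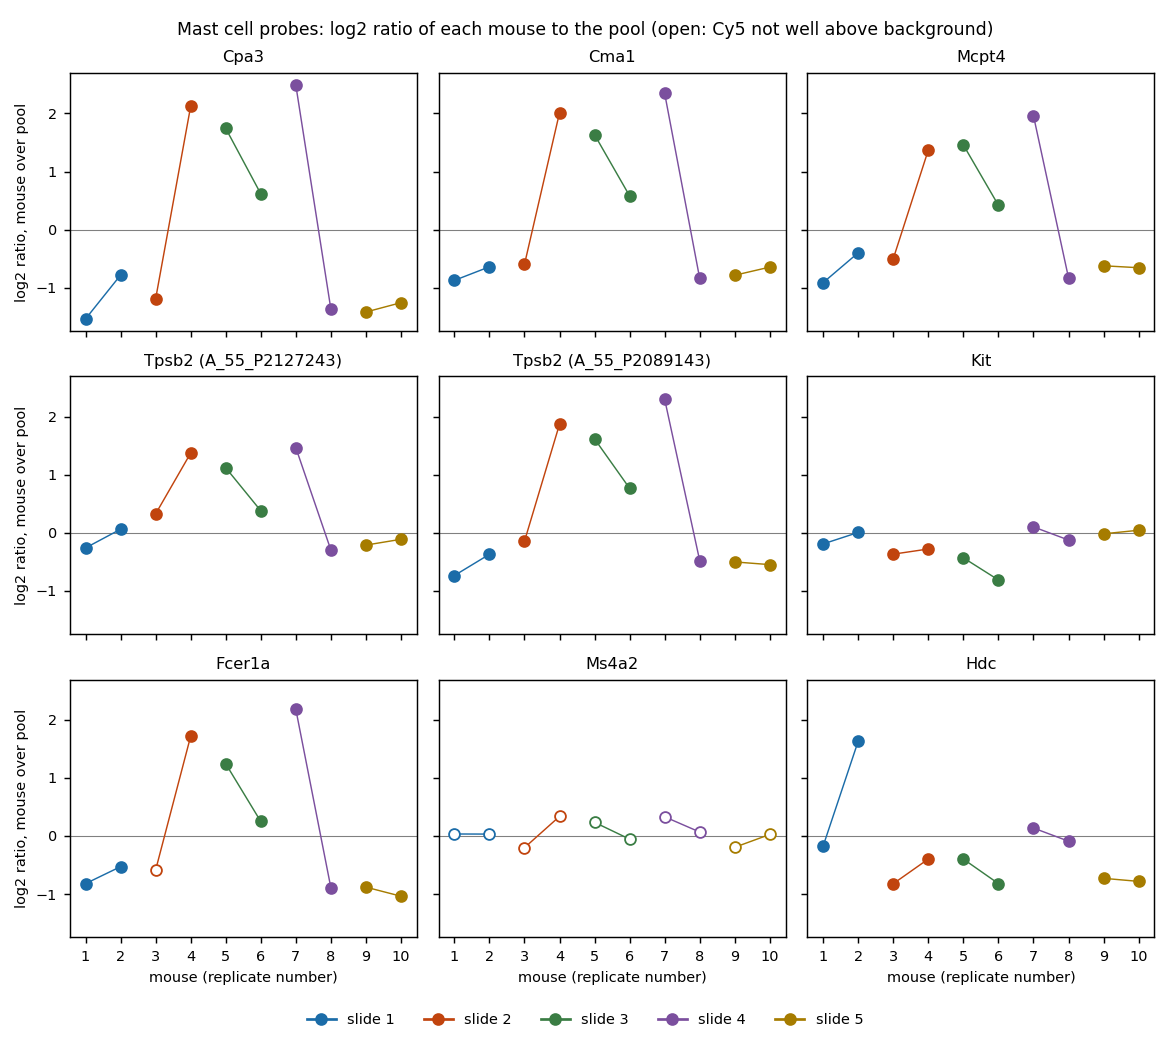
Log2 ratio of each mouse to the pool (vertical axis) for the 9 mast cell probes, by mouse (horizontal axis). Colours and joining lines mark the 2 mice that shared a slide, and open circles are spots whose Cy5 was not well above background. Mice 4, 5, 6 and 7 are the highest in *Cpa3*, *Cma1*, *Mcpt4*, *Tpsb2* and *Fcer1a*, while *Kit* stays between -0.81 and 0.10 and *Hdc* is highest in mouse 2.

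*Kit*, the receptor for stem cell factor, had the smallest range of the detected genes. Its 4 highest mice were 2, 7, 9 and 10. The lowest mouse was at -0.81, the median was -0.16 and the highest mouse was at 0.10, a 1.88-fold range. Mouse 6, high in the proteases, was the lowest in *Kit*, and mouse 7 was the highest in both. Mice 4 and 5 were at -0.28 and -0.43, near mouse 3 at -0.37. *Kit* is also made by melanocytes, the pacemaker cells of the gut and some lymphoid and progenitor cells.

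*Hdc*, the histamine-forming enzyme, was high in a single mouse. The lowest mouse was at -0.82, the median was -0.40 and mouse 2 was at 1.64, which gives a 5.49-fold range (up to 8.68-fold in the other ratios tried). Mouse 7 came next, at 0.14. Mice 4 and 5, both at -0.40, were at the median, and mouse 6, at -0.82, was among the lowest. In Cy5 signal, mouse 2 had 1255 scanner units and the other 9 mice had 121 to 421.

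The spread of the mice was set against the spread of the pool, probe by probe. The SD of log2 Cy5 over the 10 mice was 1.73 for *Cpa3*, and the SD of log2 Cy3 over the same arrays was 0.14. For *Kit* the corresponding SDs were 0.27 and 0.06. The pool varied most for *Mcpt4* (SD of log2 Cy3 0.33) and for *Tpsb2* probe A_55_P2127243 (0.28). Its log2 Cy3 of *Mcpt4* was highest on the arrays of mice 4, 5 and 7, up to 11.01 in mouse 7, and 10.11 to 10.35 on the others, although the RNA was the same, so the ratios of these mice are smaller than their Cy5 signals alone would give. What raised Cy3 there was not tested. In the Pitman-Morgan test for paired variances (two-sided, Benjamini-Hochberg over all probes detected in both dyes), Cy5 varied more than Cy3 for 8 of the 8 detected probes, with adjusted p-values between 1.88e-08 (*Cma1*) and 0.00148 (*Kit*). Of all 25049 probes tested, 59.8% passed in the same direction, so passing is common in these mice. *Kit* did not pass without normalization between arrays (adjusted p = 0.0911) or with the slide as a block (adjusted p = 0.117), whereas the other 7 probes did.

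The slide, the only batch that the files name, was tested with limma. None of the 8 detected probes differed between slides after Benjamini-Hochberg adjustment, and the same held for 0 of 27718 probes in all (0% called). At an unadjusted p under 0.05 the slide passed for 1136 probes (4.1%), among them *Kit* (p = 0.0206). On 2 of the slides a high mouse and a low mouse of the protease pattern lay side by side. On slide 2, mouse 4 exceeded mouse 3 by 3.32 log2 units in *Cpa3*, by 2.61 in *Cma1* and by 0.09 in *Kit*. On slide 4, mouse 7 exceeded mouse 8 with sizes of 3.86, 3.19 and 0.23 for the same genes.

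The protease pattern coincided with a division of the whole data set. The first principal component of all expressed probes held 75.1% of the variance between mice, and it put mice 4, 5, 6 and 7 apart from the other 6. Mice 4, 5, 6 and 7 were also the 4 highest in *Cpa3*, *Cma1*, *Mcpt4*, *Tpsb2* and *Fcer1a*. How many of all expressed genes share these 4 highest mice was not counted. The coincidence is therefore not shown to be particular to mast cell genes. The gap between mice 4 to 7 and the other 6 ran from 1.40 log2 units in *Cpa3* down to 0.06 in the brighter *Tpsb2* probe. In that probe, *Mcpt4* and *Fcer1a* the largest gap with 3 or more mice on either side lay above mouse 6. Pairs with these genes were therefore compared over the other 6 mice, while slopes on *Cpa3* were fitted over 10 mice and over 6. Bulk tissue does not tell a larger number of mast cells from more of these RNAs per mast cell. It cannot be told apart here from a change in the share of other cells either, since all ratios are relative to the total RNA of the pad.

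**Figure D3:**
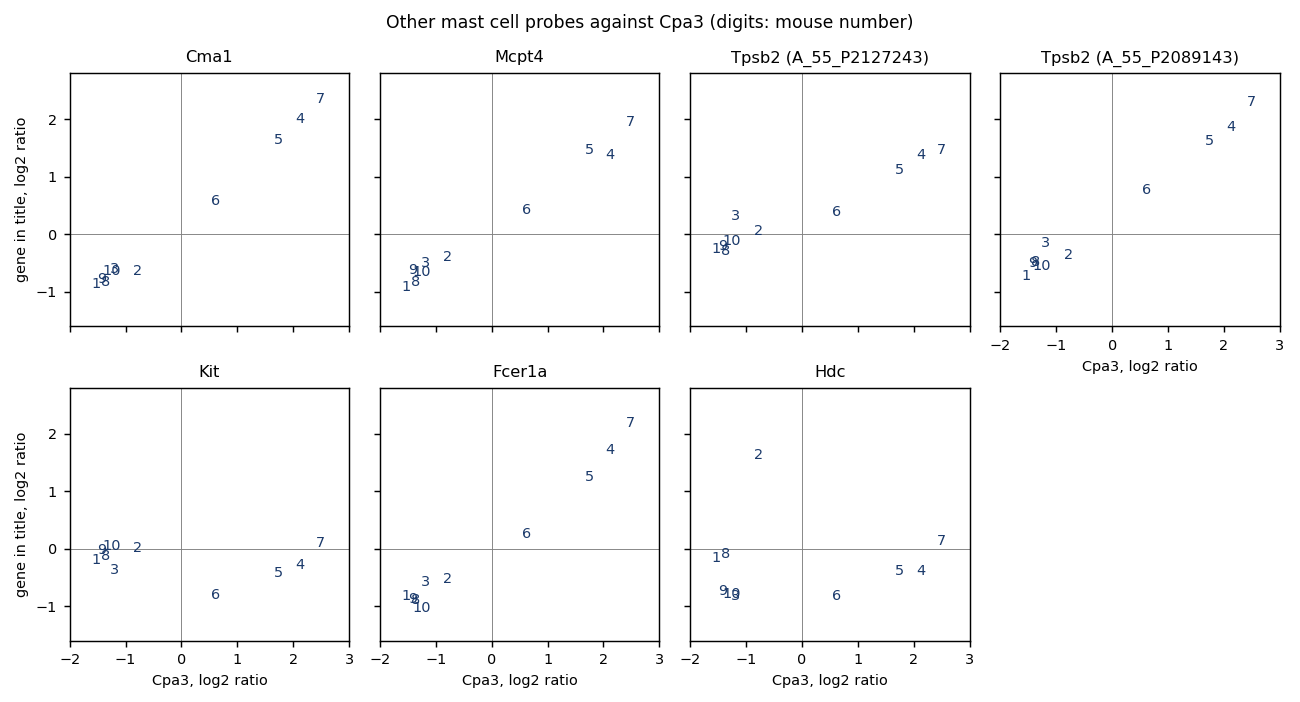
Log2 ratio of each other detected mast cell probe (vertical axis) against that of *Cpa3* (horizontal axis), each mouse drawn as its number. Mice 4, 5, 6 and 7 stand apart from the rest along *Cpa3*, and *Kit* and *Hdc* do not follow them.

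How far the genes moved with *Cpa3* was measured in a limma fit over all expressed probes, as the slope of the log2 ratio on that of *Cpa3*. Over the 10 mice, *Cma1* had a slope of 0.80 ± 0.03 (SE, n = 10, limma adjusted p = 2.81e-09), *Mcpt4* 0.66 ± 0.03 and *Fcer1a* 0.73 ± 0.04. The probes of *Tpsb2* had slopes of 0.70 ± 0.03 and 0.41 ± 0.03. These 5 probes passed the adjusted threshold with a positive slope. *Kit* (slope -0.04, adjusted p = 0.585) and *Hdc* (slope 0.01, adjusted p = 0.954) did not. Among all 27717 probes, 22.5% passed with a positive slope and 26.7% with a negative one. Positive slopes were 45.8% of those that passed, but 67.1% when arrays were centred on their median and 56.6% in the deposited values, while the 5 mast cell probes had a positive slope past the threshold in each. With the first principal component as a further covariate, 2 of all probes passed. Of these, 1 was a mast cell probe, that of *Cma1* (limma adjusted p = 0.0298), and the next mast cell probe was *Mcpt4* (adjusted p = 0.0703). In that fit the slope of *Kit* was 0.59 ± 0.14 (adjusted p = 0.212) in place of -0.04, and that of *Hdc* was 0.06 (adjusted p = 0.995).

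Inside the set of 6 mice (1, 2, 3, 8, 9 and 10) the slopes were less certain. No mast cell probe passed in the limma fit on *Cpa3* (0 of 7), against 0.018% of 27739 probes with a positive slope. At an unadjusted p under 0.05 there were 2, *Mcpt4* (p = 0.0161) and *Hdc* (p = 0.011), where 5.76% of all probes had such a positive slope. The *Hdc* slope of 2.60 ± 0.82 rested on mouse 2, and without that mouse it was -1.77 ± 0.79. The log2 ratio of *Cpa3* itself ranged over 0.75 units within these mice.

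**Figure D4:**
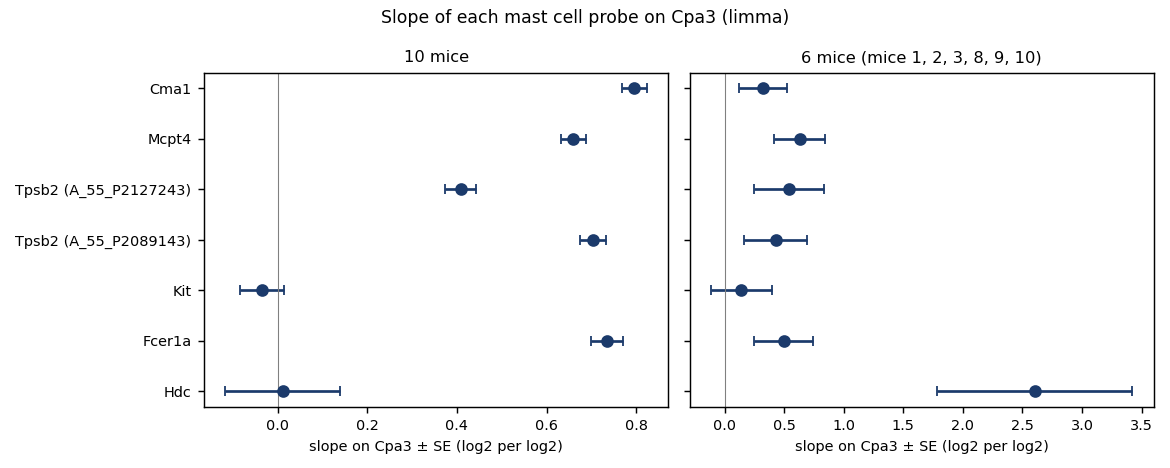
Slope of each detected mast cell probe on *Cpa3* (horizontal axis, log2 units per log2 unit, bars are ± SE) from the limma fits over 10 mice (left) and over the 6 mice 1, 2, 3, 8, 9 and 10 (right, with another scale). Over 10 mice the 5 protease and *Fcer1a* probes lie between 0.41 and 0.80 and *Kit* and *Hdc* lie near 0, and over 6 mice the error bars are wider.

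All 21 pairs of the 7 detected genes were compared, 20 of them over the 6 mice and *Kit* with *Hdc* over 10. After adjustment over all probes, limma called 0 pairs, and 5, all positive, had an unadjusted limma p under 0.05. Of all probes, 5.76% had such a slope on *Cpa3*, 0.941% on *Cma1* and 1.89% on *Mcpt4*, the genes these pairs were fitted on. *Cma1* and *Tpsb2* had Pearson's r = 0.865 (exact permutation p = 0.0125) and Spearman's rho = 0.943 (exact permutation p = 0.0167), by the brighter *Tpsb2* probe, and r = 0.749 by the other. *Cma1* and *Mcpt4* had r = 0.864 (exact permutation p = 0.0333) and *Cpa3* and *Mcpt4* r = 0.852 (exact permutation p = 0.0208). Without the 2 mice farthest from the median, these values of r were 0.810, 0.481 and 0.575. The pair of *Kit* and *Hdc* had r = 0.428 (permutation p = 0.197) and rho = 0.539 (permutation p = 0.114) over 10 mice, and r = 0.357 without the 2 farthest. *Cpa3* and *Hdc* had r = 0.730 (exact permutation p = 0.146) but rho = 0.029, and r was -0.67 without mouse 2.

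Genes of the whole array were ranked by their likeness to *Cpa3*, as Pearson's r over the 10 mice among 12674 other genes. This is a description of these mice, and every gene that parts mice 4 to 7 from the others ranks high or low in it. *Cma1* came before all of these genes, and *Mcpt4* and *Fcer1a* would have held places 2 and 4. *Tpsb2*, by its brighter probe, would have held place 108, *Hdc* place 5753 and *Kit* place 6419. The leading other genes were *Layn* (r = 0.994), *Cma2* (r = 0.991), *Pgap2* (r = 0.990) and *Mcpt-ps1* (r = 0.988). *Cma2* is a chymase gene and *Mcpt-ps1* is named as a mast cell protease pseudogene, and both belong to the gene family of *Cma1* and *Mcpt4*. Then came *Pdlim4*, *Diap1*, *Cpeb4*, *D1Ertd622e*, *A530064D06Rik* and *Lim2*, with r between 0.984 and 0.986. The genes that ran most opposite to *Cpa3* were *Fads3* (r = -0.999), *Bnip3*, *Serpina3i*, *Adcy5* and *Olfr558*, with r down to -0.996 for the last. Within the 6 mice, r with *Cpa3* for the 10 leading genes ran from 0.028 (*Cpeb4*) to 0.942 (*Pgap2*), with 0.793 for *Cma2* and 0.617 for *Mcpt-ps1*. For the 5 opposite genes it ran from -0.958 (*Fads3*) to -0.865 (*Serpina3i*).

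Further genes known from mast cells were counted in the same fit over 10 mice. Of 28 such genes on the array 19 were expressed, and 14 had a positive and 3 a negative slope on *Cpa3*, beside 22.5% and 26.7% of all probes, with a median slope of 0.16 beside -0.003 over all probes. In the tryptase family *Tpsg1* had a slope of 0.20 (limma adjusted p = 6.43e-05), and *Tpsab1* was well above background on 1 array. The chymases of mucosal mast cells, *Mcpt1* and *Mcpt2*, were well above background on 0 arrays. Among the genes for granule contents, *Slc18a2*, the vesicular monoamine transporter, had a slope of 0.20 (adjusted p = 2.73e-05) and *Tph1*, which starts serotonin synthesis, 0.30 (adjusted p = 2.1e-06). *Srgn*, the core protein that carries granule heparin, had a slope of 0.06 (adjusted p = 0.0455), and *Ndst2*, which sulphates that heparin, 0.12 (adjusted p = 0.0017). These slopes were smaller than those of *Cma1* and *Mcpt4*, and the differences were not tested.

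The transcription factors of mast cells went both ways. *Mitf* had a slope of 0.46 (limma adjusted p = 6.84e-06), with log2 ratios of 0.89 to 1.22 in mice 4 to 7 and -0.77 to -0.08 in the others. *Gata2* had a slope of -0.19 (adjusted p = 0.00252), with -0.67 to -0.24 in mice 4 to 7 and 0.18 to 0.47 in the others. Over all probes, 22.5% passed with a positive slope and 26.7% with a negative one. How many genes part the mice in this way was not counted. *Gata1* was well above background on 1 array. The largest slopes of the list were those of *Gp49a* (0.85), *Lilrb4* (0.73), *Cd200r1* (0.62), *C3ar1* (0.54) and *Fcer1g* (0.45), which macrophages also make.

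*Mitf* and the GATA factors bind short motifs, an E-box (CANNTG) and GATAA, so the 250 bases before the start of each gene were searched for both on either strand. RefSeq windows (build GRCm38.p6) were at hand for 7 of the 8 genes, without *Tpsb2*. GATAA was found in 5 of them, those of *Cpa3*, *Cma1*, *Mcpt4*, *Fcer1a* and *Ms4a2*, and in 22.6% of 32851 windows of the same length. CANNTG was found in 4, against 66.2% of all windows, and its last base may be shared with a GATAA. The windows of *Cpa3*, *Mcpt4* and *Fcer1a*, which moved together over the 10 mice, are printed 5′ to 3′ on the strand of the gene, with GATAA or its reverse complement in capitals. All lie on the minus strand, at chr3:20242182-20242431, chr14:56062311-56062560 and chr1:173227230-173227479. The most GATAA matches, 3, were in the window of *Ms4a2*, which was not detected on the arrays. A match is a description of the letters and no evidence of binding, and its relation to the ratios was not tested.
*Cpa3*: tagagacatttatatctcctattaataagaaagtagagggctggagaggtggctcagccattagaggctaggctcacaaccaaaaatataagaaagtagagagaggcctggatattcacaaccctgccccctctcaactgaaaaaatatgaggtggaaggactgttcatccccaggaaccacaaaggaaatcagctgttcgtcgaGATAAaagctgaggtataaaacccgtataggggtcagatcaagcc
*Mcpt4*: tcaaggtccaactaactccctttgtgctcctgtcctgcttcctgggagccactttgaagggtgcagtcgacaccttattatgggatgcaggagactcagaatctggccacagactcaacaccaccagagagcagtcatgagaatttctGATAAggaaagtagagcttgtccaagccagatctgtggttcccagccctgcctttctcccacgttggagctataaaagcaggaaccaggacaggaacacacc
*Fcer1a*: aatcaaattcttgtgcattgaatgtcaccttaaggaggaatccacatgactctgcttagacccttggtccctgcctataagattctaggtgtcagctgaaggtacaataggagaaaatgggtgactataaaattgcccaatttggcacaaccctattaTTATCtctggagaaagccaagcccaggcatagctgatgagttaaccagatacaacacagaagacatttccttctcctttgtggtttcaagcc

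Genes that act beneath the IgE receptor and KIT were taken as a list of 20, all expressed. Over 10 mice 12 had a positive and 4 a negative slope on *Cpa3* (median 0.15), beside 22.5% and 26.7% of all probes. *Syk*, the kinase that the receptor recruits, had a slope of 0.36 (limma adjusted p = 1.48e-05) and *Lat2*, an adaptor, 0.66 (adjusted p = 1.86e-05). *Plcg1*, a phospholipase C, had a slope of -0.33 (adjusted p = 3.99e-07). Most of these proteins serve many blood cell types.

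Of 10 expressed genes for eicosanoids and histamine, 2 had a positive and 3 a negative slope, near the 22.5% and 26.7% of all probes. *Hpgds*, the haematopoietic prostaglandin D synthase, had a slope of 0.67 (limma adjusted p = 2.12e-05), and *Ltc4s*, the leukotriene C4 synthase, had -0.46 (adjusted p = 1.53e-07). *Hnmt*, which inactivates histamine, had a slope of -0.03 (adjusted p = 0.52). Of 8 expressed growth and recruitment factors 2 had a positive and 2 a negative slope, again near those shares. *Kitl*, which encodes stem cell factor, had a slope of 0.08 (adjusted p = 0.149).

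The chymase locus also holds granzyme genes, most of them not detected here. Of 10 genes of that list 2 were expressed, *Cma2* (slope 0.63, limma adjusted p = 1.24e-08) and *Gzmb* (slope 0.08, adjusted p = 0.0689). *Ctsg*, cathepsin G, was well above background on 4 arrays, too few for a slope. *Mcpt8*, the protease of basophils, which share *Fcer1a* with mast cells, was well above background on 0 arrays.

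**Figure D5:**
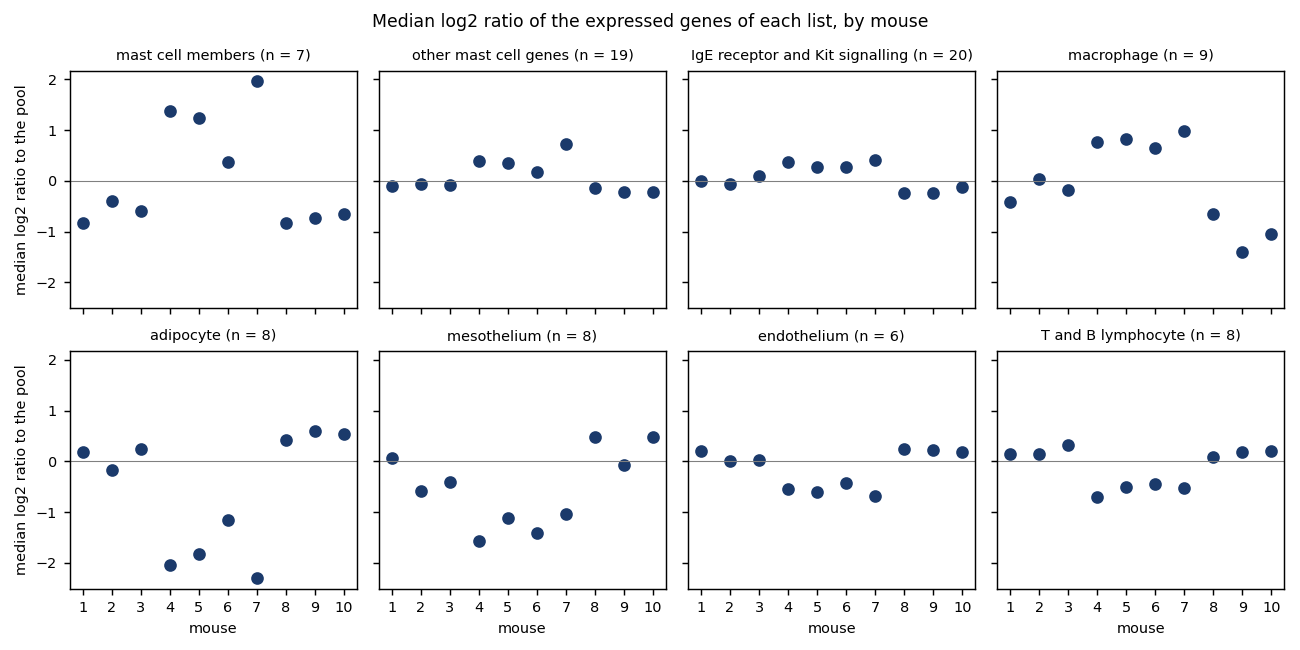
Median log2 ratio to the pool (vertical axis) over the expressed genes of 8 lists in each mouse (horizontal axis), with the number of genes in each title. In mice 4, 5, 6 and 7 the medians are high for mast cell and macrophage genes and low for adipocyte, mesothelium, endothelium and lymphocyte genes.

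Markers of other cells moved with the mast cell proteases. Of 9 macrophage genes, all expressed, 8 had a positive and 1 a negative slope on *Cpa3*, and their summed normalized Cy5 signal was 211250 to 253090 in mice 4 to 7 and 50143 to 101030 in the other 6. Of 8 adipocyte genes 7 had a negative slope, *Retn* being left out for a marked spot in mouse 9, and their summed signal was 92096 to 160730 in mice 4 to 7 and 290010 to 511640 in the others. Negative slopes were also found for 8 of 8 mesothelium genes, 5 of 6 endothelial genes and 5 of 8 lymphocyte genes, with 0 positive in each list, where the shares over all probes were 22.5% positive and 26.7% negative. The part of these cell types in the mast cell pattern was not tested.

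The remaining lists were counted in the same way, beside 22.5% positive and 26.7% negative slopes of all probes over the 10 mice. For basophil genes 1 was positive and 1 negative of 3 expressed, for eosinophil genes 2 and 3 of 6, and for genes of type 2 innate lymphoid cells 2 and 2 of 6. For cells that share *Kit* with mast cells the counts were 1 and 1 of 4 melanocyte genes and 1 and 1 of 2 genes of interstitial cells of Cajal. Neutrophil genes had 2 positive of 6, genes of fibroblasts and adipocyte progenitors 4 positive and 2 negative of 9, and epididymis genes 1 negative of 2. Inside the 6 mice, 0 genes of any list passed in limma after adjustment, while at an unadjusted p under 0.05 a positive slope was seen for 3 of 9 macrophage genes and 2 of 19 further mast cell genes, with 5.76% of all probes. A negative slope at that threshold was seen for 0 of the macrophage genes and 2 of the further mast cell genes, with 3.2% of all probes. Adipocyte genes had 4 of 8 negative and 0 positive, and mesothelium genes 5 of 8 negative and 3 positive. Genes of interstitial cells of Cajal had 2 of 2 positive and fibroblast genes 2 of 9, with 0 negative in either list. Eosinophil genes had 3 of 6 negative and endothelial genes 2 of 6, with 0 positive in either list. Eicosanoid and histamine genes had 2 positive and 1 negative of 10.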

How the data were processed

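RNA of eWAT from 10 mice was measured on 10 two-colour Agilent arrays. Per the file headers, intensity values are the brightness of each spot and its background as the authors' scanner software wrote them (Agilent Feature Extraction 10.7.3.1 by the submitters' processing notes, annotation mm9). The authors also deposited that software's log10 ratio of Cy5 over Cy3, and 1 normalized value per mouse for 30733 spots. The values that the authors deposited for these spots were read as log2, since they follow log2 Cy5 (r of 0.994 to 0.999). How they were normalized is not given in the sources used here.

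Intensities were background-corrected (normexp, offset 50) and loess-normalized per array in limma 3.58.1 (R 4.3.3). Channel values were also scaled between arrays (Aquantile). Control and outlier spots were left out, and spots of 1 probe were averaged. Probes with Cy5 well above background on 5 or more arrays (27811) were called expressed, and detected in both dyes if Cy3 met the same rule. Median Cy5 signals were 54.8 to 81.3, over backgrounds of 32 to 37, with 0 saturated spots. The number of arrays limits the precision. A gene with several probes was represented by the brightest in Cy5, and older names were looked up in RefSeq (GRCm38.p6).

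Tests were two-sided with Benjamini-Hochberg adjustment over all probes at 0.05: Pitman-Morgan for variances, limma's F test for slides, and limma slopes on *Cpa3*. Separate sets of mice were taken where a gene's highest mice were those that the first principal component set apart. They were also taken where a gap of 0.4 of a gene's range left 3 or more mice on either side. Pairs were then compared over the set of 6 mice, with all permutations of 6 mice or 100000 of 10. Genes named are the 8 mast cell genes, those of the lists, and the 10 most and 5 least like *Cpa3*. The members and lists were chosen with earlier results of these data known. The variance, slide and slope tests were also run on simulated data, in which random variation was independent between probes. The permutation tests, Dixon's test and the rule for separate sets of mice were not. Nothing says that p-values cover more than the spread between these mice, 1 array each. Alternatives covered the background correction, the filter, the normalization, the scanner's ratio, the deposited values, the slide, the first component and leaving out each mouse. Sequences were read with Python 3.11.15.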

Additional observations from a re-analysis of the deposited data

Results flagged for a closer look

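*Hdc* in mouse 2 stood far from the other mice. Its log2 ratio was 1.64, the next mouse was at 0.14, and the gap came to 0.6105 of the range of the 10 mice, above the critical value of Dixon's test for 10 samples, which about 1 in 20 groups pass by chance. All 9 mast cell probes were screened in this way, so a pass by any of them is more likely than that. Only *Hdc* passed. The mouse on the same slide as mouse 2, mouse 1, was 1.81 log2 units lower in *Hdc*. In the lists, mouse 2 was highest in 0 of 19 further mast cell genes, 0 of 9 macrophage genes and 1 of 20 IgE receptor and KIT signalling genes. If all mice were alike, each of the 10 would be highest in about 1 gene in 10. Among the expressed genes of the lists 15 others were also highest in mouse 2. That count is near 1 in 10 of the listed genes and was not tested. The 15 included *Ptgds*, a prostaglandin D synthase, at 1.24 with the next mouse at -1.14, and the simple epithelium keratins *Krt8* at 1.91 with the next at -0.23 and *Krt18* at 1.85 with the next at 0.16. Of the 8 mesothelium genes 3 were highest in mouse 2, all of them keratins, while *Msln* and *Upk3b* were at -0.96 and -0.98 there. Single genes of other lists were highest there too. These included *S100a8* (0.90, 1 of 6 neutrophil genes), the granulocyte gene *Gpr97* (0.93, 1 of 3 of the basophil list) and *Pi16* (0.51, 1 of 9 fibroblast genes). The neutrophil gene *S100a9* was instead highest in mouse 8, at 2.25 with the next mouse at -0.40. *Ano1* and *Etv1* (0.67 and 0.60), both of 2 expressed genes listed for interstitial cells of Cajal, were highest in mouse 2. The part of these genes in the *Hdc* value was not tested.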

How the results depend on the processing

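Mice 4, 5, 6 and 7 were the 4 highest in *Cpa3*, *Cma1*, *Mcpt4*, *Tpsb2* and *Fcer1a* with every background correction, normalization and source of the ratio tried, while the size of the range moved by over 1.5 times in *Cpa3* (16.3-fold to 25.8-fold), *Cma1* (9.32 to 20.5), *Mcpt4* (7.31 to 12.2), *Tpsb2* probe A_55_P2089143 (8.20 to 14.8), *Fcer1a* (9.32 to 37.0) and *Hdc* (5.49 to 8.68). Median centring in place of loess moved the median of the expressed probes on the log2 scale from 0.003 to 0.32, so the sign of a ratio near 0 depends on the centring, and the mean of *Kit* went from -0.21 to 0.19.

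The number of mast cell probes with more variance in Cy5 stayed within 1.5 times of 8 in every alternative, also without any 1 mouse, and the slide called 0 throughout. Over 10 mice, 13633 probes had a slope on *Cpa3*, against 8469 with median centring, 8852 with the slide as a block and 2 with the first component, where 1 mast cell probe in place of 5 remained. Of the calls 45.8% were positive, and 67.1% with median centring, 51.2% with the scanner's ratio and 56.6% with the deposited values. With no filter *Ms4a2* also passed (adjusted p = 0.0117) although it was not above background. Over 6 mice, 5 probes passed, against 137 without background subtraction, 569 without a filter and 0 with the filter on all arrays, median centring, the scanner's ratio, the deposited values or the first component, and 0 to 458 when 1 mouse was left out (458 without mouse 1, 264 without mouse 3, 62 without mouse 10, 2 without mouse 9 and 0 without mouse 2 or mouse 8). Between members, 0 pairs passed, 10 over all 10 mice with the slide as a block, and 0 to 1 when 1 mouse was left out (*Fcer1a* with *Hdc* without mouse 3). Median centring changed r of *Kit* over the 6 mice. With *Cma1* it went from -0.02 to 0.75, with *Mcpt4* from 0.10 to 0.90 and with *Tpsb2* from -0.48 to 0.68. With *Fcer1a* it stayed negative (-0.43 to -0.10). The cause was not tested.

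No paired analysis was possible because all 10 mice belong to 1 group, so no mouse of another group can be paired with them.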
